A study of Mus musculus with 14 samples.

Results

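Dominant negative (DN) Trpm4 was introduced into mouse Th2 cells with a retrovirus, and transcript levels were compared with those of Th2 cells that carried the empty vector. The experiment comprised 4 of the 14 arrays of the series, which were vector and DN Trpm4 at 4 h and vector and DN Trpm4 at 12 h. They were chosen by their titles. The T cells had been polarised for 2 weeks, and the labels describe the times as hours of stimulation without naming the stimulus. All 4 arrays came from retrovirus-infected Th2 cells, 1 array per condition, and each DN array was set against the vector array of its own time. The labels do not give the mouse strain, the number of animals or cultures, the share of infected cells or the form of the dominant negative protein. The other 10 arrays held the same retrovirus experiment in Th1 cells, and cells of both types that were untreated or treated with Trpm4 siRNA or Thy1 siRNA. In the siRNA pairs used below, the control of each Trpm4 siRNA array was the Thy1 siRNA array of the same cell type. The series asked how gene profiles change when the channel is inhibited.

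Trpm4 is a calcium-activated channel of the plasma membrane that conducts monovalent cations and no calcium. Its opening depolarises the membrane and so lowers the driving force for calcium entry through store-operated channels. In T helper cells, calcium entry activates calcineurin, which moves NFAT proteins into the nucleus, where they act with AP-1 and NF-kappaB on cytokine genes. Th2 cells are the helper T cells that secrete interleukin 4, interleukin 5 and interleukin 13.

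The deposited values were signals of 45101 probe sets on a linear scale. They were quantile normalised and expressed as log2 of the signal plus 16, so that the floor was 4 and the array median 5.39. The analysis covered the 23194 probe sets that exceeded the array median on at least 2 of the 4 arrays, which represented 10814 named genes. A ratio is the difference of 2 such log2 values, DN minus vector, and it understates the change of dim transcripts. A 1.5-fold difference corresponds to 0.58. With 1 array per condition there was no replicate of either time, so a p-value here measures the spread between pairs of arrays and says nothing of spread between cultures.

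Total signal was 8706950 for vector and 7907071 for DN at 4 h, and 7602019 for vector and 8149817 for DN at 12 h. The ratio of 3′ to 5′ control signal was high on all 4 arrays, which is a mark of shortened or incompletely copied RNA. For Actb its log2 was 3.96 with vector and 4.85 with DN at 4 h, and 4.36 with vector and 4.73 with DN at 12 h. For Gapdh it was 5.53 with vector and 5.80 with DN at 4 h, and 5.43 with vector and 5.70 with DN at 12 h. By Actb and by Gapdh the DN array was the more 3′-biased of its pair at both times. By Tfrc, another control transcript, it was so at 4 h (2.46 with vector and 3.09 with DN) but not at 12 h (2.66 and 2.13). For Actb the Th1 pair at 4 h had values of 4.48 and 4.44, whereas the remaining 8 arrays lay between 0.05 and 0.47. Those 8 arrays lay between -0.25 and 0.04 for Gapdh. For Tfrc they lay between 1.47 and 2.91, so Tfrc did not set the 3′-biased arrays apart.

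Most markers fixed for Th2 cells were well above the array median, but Ccr4 lay around it (5.28 to 5.64). Ccr8 was at 7.04 and 6.74 at 4 h and at 5.72 and 5.73 at 12 h, for vector and DN. Gata3, the lineage-defining transcription factor, was between 10.82 and 11.19 on the 4 arrays, and 6 of 7 Th2 markers and 7 of 7 general T cell markers exceeded the median on all 4. Of other cell types, 0 of 5 erythroid, 1 of 9 B cell, 3 of 14 macrophage and dendritic cell, 2 of 12 fibroblast, 3 of 5 Treg and Th17 cell and 3 of 9 CD8 T and natural killer cell markers did so. Their summed signals ranged from 50 to 69 for the erythroid, 172 to 196 for the B cell, 335 to 386 for the macrophage and dendritic cell, and 290 to 393 for the fibroblast list. The CD8 T and natural killer list summed to between 10176 and 11382, nearly all from Gzma, a granzyme that was between 13.32 and 13.39 on each array. Cd8b1 stayed between 4.45 and 5.12, below the array median, while Cd8a was at 5.48 and 5.51 at 4 h and at 5.32 and 5.73 at 12 h, for vector and DN, close to it. The Treg and Th17 list summed to 311 with vector and 271 with DN at 4 h, and to 364 and 469 at 12 h, so it was lower with DN at 4 h and higher at 12 h. Its defining genes Foxp3 and Il17a were below the array median on all 4 arrays. Ifng and 3 other markers of Th1 cells also exceeded the median on all 4 arrays. Ifng was between 9.48 and 10.70, and Tbx21, another of these, between 9.84 and 10.43. The part of these signals in the results was not tested.

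Trpm4 itself, read on 1 probe set, was at 6.90 with vector and 7.0 with DN at 4 h, and at 7.27 with vector and 7.06 with DN at 12 h. The ratios of 0.09 and -0.21 gave no sign of extra Trpm4 RNA on the arrays labelled DN. In Th1 cells the same probe set had ratios of 0.60 at 4 h and 2.59 at 12 h. Whether it lies in the part of the transcript that the virus carries is not stated in the labels. Expression of the construct in the Th2 cells was therefore not checked by these data, and the DN arrays are named by their labels.

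DN Trpm4 and vector differed more widely in Th2 cells than in any other pair of the series. The SD of the ratio over the 23194 probe sets was 0.29 at 4 h and 0.28 at 12 h, against 0.16 and 0.21 for the Th1 retrovirus pairs and 0.22 for Trpm4 siRNA in Th2 cells. At 4 h, 1040 probe sets passed 1.5-fold, of which 497 were higher (2.14%) and 543 lower (2.34%) with DN. At 12 h, 408 were higher (1.76%) and 472 lower (2.04%). The split at 12 h depended on scaling. On the deposited scale 699 were higher and 331 lower, and with each array centred on its median 789 were higher and 285 lower, because the median ratio of all probe sets was then 0.10 and 0.12. At 4 h these scales gave 445 higher and 747 lower, and 445 higher and 744 lower.

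The differences at the 2 times had little in common. Of the 23194 probe sets, 10 were past 1.5-fold higher at both times (0.0431%) and 11 lower at both (0.0474%). A further 58 were higher at 4 h and lower at 12 h (0.25%), and 35 were lower at 4 h and higher at 12 h (0.151%). On the deposited scale these opposite groups held 47 and 57, and on the median-centred scale 45 and 60. Ratios had the same sign at both times for 45.7% of probe sets. Pearson's r between the ratios at 4 h and at 12 h was -0.15 and Spearman's rho -0.14 over the 23194 probe sets. This r describes probe sets, which are not independent replicates, and the 2 pairs share no array but do share the array set and its 3′ bias.

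**Figure D1:**
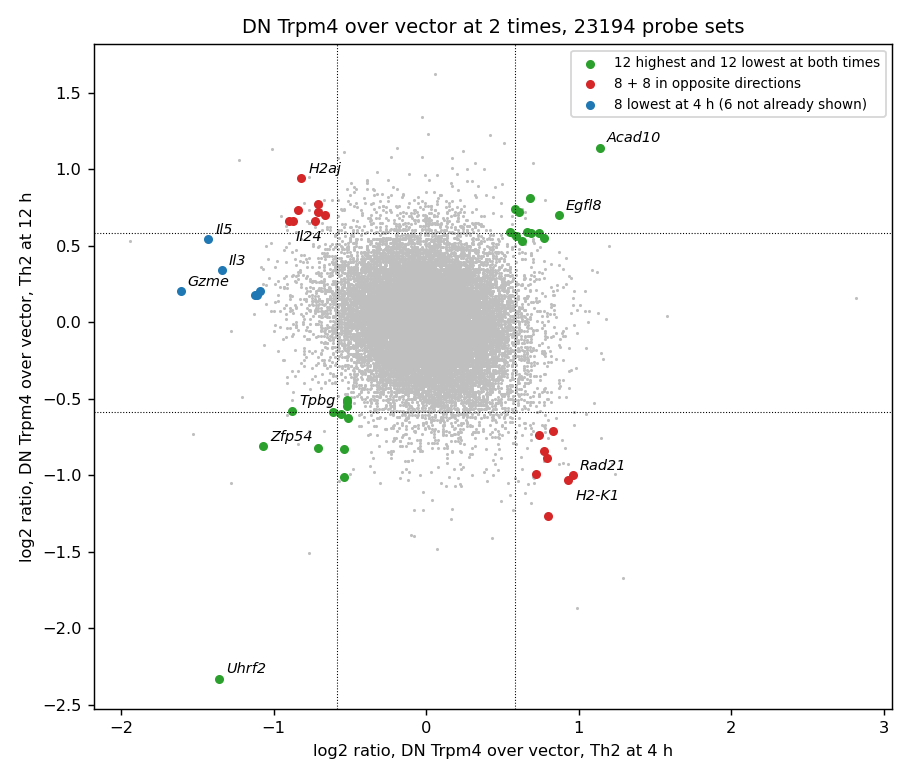
Log2 ratio of DN Trpm4 over vector in Th2 cells at 4 h (horizontal) and 12 h (vertical), 1 grey point for each of 23194 probe sets, with dotted lines at 1.5-fold and coloured points for named genes. The cloud has no rising diagonal (r of -0.15), Uhrf2 lies alone at lower left with ratios of -1.36 and -2.33, and Il5, Il3 and Gzme lie at far left with ratios at 12 h of 0.54, 0.34 and 0.20.

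Cytokines of type 2 immunity showed the largest displacement at 4 h and the opposite sign at 12 h. All 7 kept members of the list had ratios below 0 at 4 h, with a median of -0.77, where the median of all genes was 0.01 and 48.7% of genes were below 0. At 12 h, 6 of the 7 were above 0 and the median was 0.45, against 0.02 for all genes, of which 53.1% were above 0. In these bulk samples, fewer cells that express a gene and less RNA per cell cannot be told apart. Past 1.5-fold, 6 of 7 were lower at 4 h (background 2.22% of genes) and 2 of 7 higher at 12 h (background 1.49%). Across the scalings, pseudocounts and filters tried, the median stayed between -0.83 and -0.64 at 4 h and between 0.28 and 0.52 at 12 h.

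Il5, the eosinophil growth factor, was at 10.90 with vector and 9.47 with DN at 4 h, and at 11.51 with vector and 12.05 with DN at 12 h. On the deposited scale these were signals of 1851, 624, 2316 and 3567. The DN array at 4 h was thus the lowest of the 4 and the DN array at 12 h the highest. Il4, the defining Th2 cytokine, was at 12.23 and 11.58 at 4 h, and at 11.15 and 11.60 at 12 h, for vector and DN in that order. The 2 DN arrays were nearly equal, while the vector arrays lay above them at 4 h and below them at 12 h. Il24, a cytokine of the interleukin 10 family, was at 7.91 and 7.01 at 4 h and at 8.29 and 8.95 at 12 h, the same arrangement as Il5. Il31, the itch-inducing cytokine, was at 6.91 and 6.14 at 4 h and at 4.80 and 5.52 at 12 h, so that its vector array at 12 h lay below the array median. Il10, an anti-inflammatory cytokine, had ratios of -0.59 and 0.11. Il21, which acts on B cells, had -0.82 and -0.27 and was the member below 0 at both times. Il13, which drives mucus production, was bright on every array (12.11 to 12.55) and had the smallest ratios, -0.26 and 0.02.

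**Figure D2:**
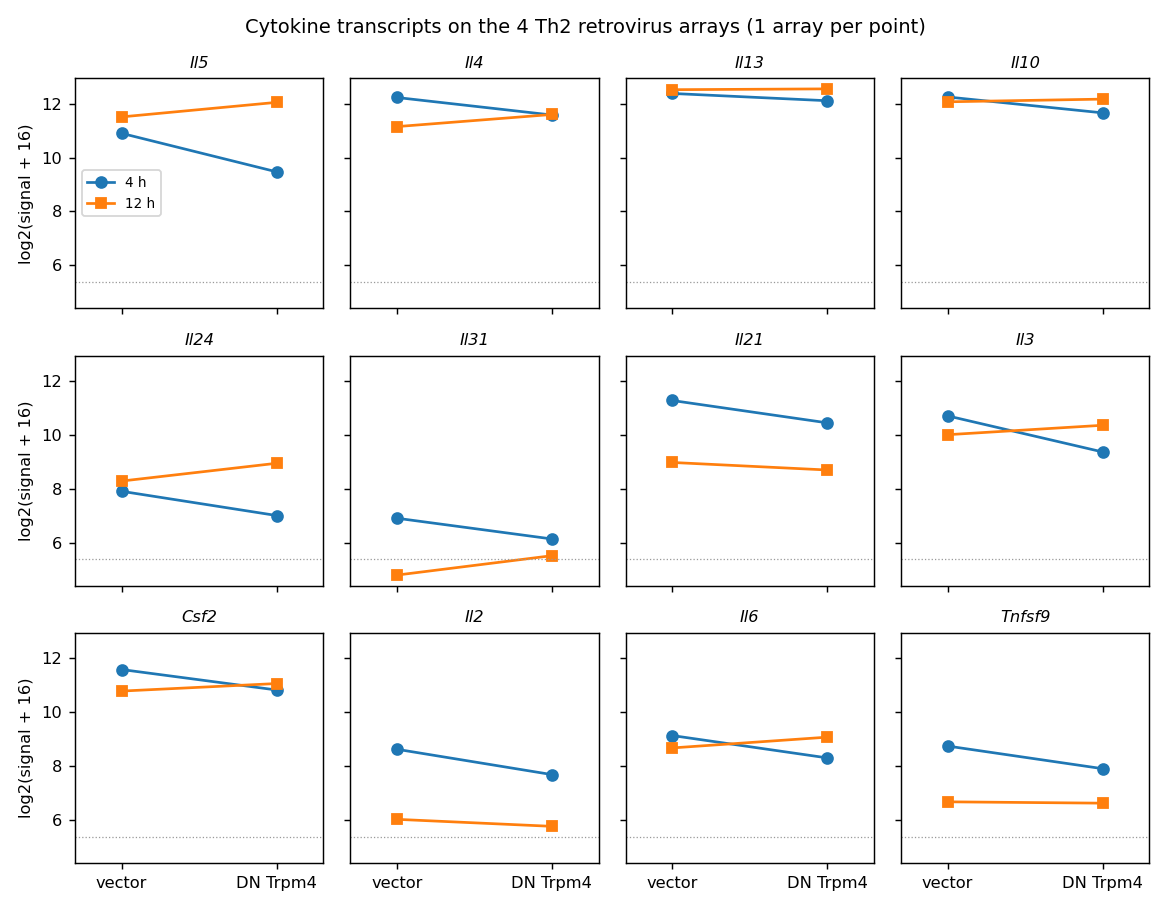
Log2(signal + 16) of 12 cytokine transcripts on the 4 Th2 retrovirus arrays, 1 array per point, with vector joined to DN Trpm4 at 4 h (circles) and at 12 h (squares) and a dotted line at the array median. All 12 lines descend at 4 h, steepest for Il5 and Il3 (-1.43 and -1.34), and 9 ascend at 12 h. The 12 are a selection from the cytokine lists. Il16, Lta and Ltb, which were higher with DN at 4 h (0.49, 0.24 and 0.17), are not shown.

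The change of the DN effect between the times was tested with limma in a fit to 6 pairs of arrays, in which the spread came from the other 4 pairs of the series. None of the 7 type 2 cytokines passed an adjusted p of 0.05, and 5 of 7 had an unadjusted p under 0.05, against 20.1% of all probe sets. Il5 came nearest, with a difference of 1.97 ± 0.21 (SE, 1 pair per time) and a limma adjusted p of 0.0643. With a variance prior that follows the signal level (eBayes with a trend), 5 of 7 passed with a higher value at 12 h, among 497 of 10814 genes (4.6%), while 353 genes passed with a lower value (3.26%). These were Il5, Il24, Il31, Il4 and Il10, with limma adjusted p from 0.000126 to 0.0336. The pairs that lent the spread were narrower than both Th2 pairs, so these p-values are too small to the extent that a Th2 retrovirus pair varies more.

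The sequence upstream of 4 cytokine genes, Il5, Il3, Il4 and Il13, is shown as a description. The part of NFAT in their ratios was not tested. Each is the 250 bases before the annotated start, from RefSeq on GRCm38.p6, written 5′ to 3′ on the strand of the gene. Capitals mark GGAAA on either strand (TTTCC in the complement), the core that NFAT proteins bind and that other factors bind too. Il5 and Il3 are the cytokines with the lowest ratios at 4 h, Il4 defines the cell type, and Il13 had the smallest ratio of its list.
Il5, chr11:53720544-53720793, plus strand: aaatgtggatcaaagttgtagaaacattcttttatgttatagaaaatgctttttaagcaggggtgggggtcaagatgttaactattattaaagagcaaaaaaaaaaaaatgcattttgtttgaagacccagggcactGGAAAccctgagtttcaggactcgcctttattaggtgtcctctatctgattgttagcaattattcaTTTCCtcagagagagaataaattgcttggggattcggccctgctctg
Il3, chr11:54267280-54267529, minus strand: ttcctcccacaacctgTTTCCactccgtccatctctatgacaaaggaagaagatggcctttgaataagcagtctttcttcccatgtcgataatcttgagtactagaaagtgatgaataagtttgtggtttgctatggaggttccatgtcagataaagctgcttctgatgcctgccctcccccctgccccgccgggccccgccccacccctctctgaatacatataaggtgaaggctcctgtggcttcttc
Il4, chr11:53618666-53618915, minus strand: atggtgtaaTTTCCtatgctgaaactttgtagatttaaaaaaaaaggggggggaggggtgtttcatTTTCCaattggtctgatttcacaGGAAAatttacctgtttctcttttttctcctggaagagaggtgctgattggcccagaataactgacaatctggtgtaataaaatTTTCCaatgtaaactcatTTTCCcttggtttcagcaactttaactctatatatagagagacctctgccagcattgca
Il13, chr11:53634703-53634952, minus strand: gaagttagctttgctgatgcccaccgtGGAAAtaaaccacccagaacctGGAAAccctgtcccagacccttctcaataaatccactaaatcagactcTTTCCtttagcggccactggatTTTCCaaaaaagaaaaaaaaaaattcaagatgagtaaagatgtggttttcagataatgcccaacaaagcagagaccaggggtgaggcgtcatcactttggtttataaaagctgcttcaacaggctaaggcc
The number of GGAAA matches was 2 in Il5, 1 in Il3, 5 in Il4 and 4 in Il13. In the same order, the ratios at 4 h were -1.43, -1.34, -0.65 and -0.26. Of the 5 type 2 cytokines in the promoter table, 4 held at least 1 match and 3 held at least 3. Among all 27025 promoters of the same length, 55.6% held at least 1 and 6.49% at least 3. At least 1 match was found in 14 of 15 other T cell cytokines and 7 of 8 chemokines, and in 7 of 21 immediate early and NFAT-induced genes. The AP-1 motif TGANTCA, a palindrome, was in 0 of 5 type 2 cytokines, 4 of 15 other T cell cytokines, 1 of 8 chemokines, 2 of 12 NF-kappaB genes, 0 of 21 immediate early and NFAT-induced genes and 6.85% of all promoters. A match is a description of letters in this window.

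Other T cell cytokines had a median ratio of -0.47 at 4 h and 0.06 at 12 h. At 4 h, 14 of 17 were below 0 and 5 were past 1.5-fold lower (48.7% and 2.22% of all genes were). At 12 h 9 were above 0, which is near the 53.1% of all genes. Il3, a growth factor for mast cells and basophils, was at 10.71 with vector and 9.37 with DN at 4 h, and at 10.01 and 10.36 at 12 h. Its lowest array was DN at 4 h, and the vector array of that time was its highest. Il2, the T cell growth factor, was at 8.63 and 7.69 at 4 h and at 6.03 and 5.77 at 12 h, below its vector array both times. Csf2, which encodes GM-CSF, was at 11.59 and 10.83 at 4 h and at 10.79 and 11.07 at 12 h. Il6 had ratios of -0.83 and 0.40, and Tnfsf9, the ligand of 4-1BB, -0.84 and -0.05. Ifng had -0.47 and -0.11 and Tnf -0.40 and -0.05. Il16 went the other way at 4 h (0.49, with 0.16 at 12 h), and Ltb and Lta were above 0 at both times. In the limma test of the time difference, 0 of 17 passed and 6 had an unadjusted p under 0.05 (20.1% of all probe sets). With the trend prior 5 passed (4.6% of all genes did in that direction), all higher at 12 h: Il3, Il6, Csf2, Tnfsf9 and Osm.

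Chemokines had medians of -0.47 at 4 h and 0.12 at 12 h, with 9 of 10 below 0 at 4 h and 7 of 10 above 0 at 12 h. Of all genes, 48.7% were below 0 at 4 h and 53.1% above 0 at 12 h. Ccl3 and Ccl4, inflammatory chemokines that attract leukocytes, had ratios of -0.72 and -0.67 at 4 h and 0.09 and 0.25 at 12 h. Cxcl2 and Cxcl3, the neutrophil attractants, had -0.79 and -0.73 at 4 h and 0.19 and 0.27 at 12 h. Ccl1, the ligand of the Th2 receptor Ccr8, was below 0 at both times (-0.19 and -0.31), and Xcl1 had -0.10 and 0.00. Past 1.5-fold, 5 of 10 were lower at 4 h (2.22% of all genes were) and 0 passed in either direction at 12 h. In the limma time test 0 of 10 passed and 6 had an unadjusted p under 0.05 (20.1% of all probe sets), while 5 passed with the trend prior, all higher at 12 h (4.6% of all genes). The median at 4 h was the least stable of these groups and lay between -0.67 and -0.18 across the alternatives.

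Genes that T cell activation induces within hours were displaced in the same way and by less. Of 29 immediate early and NFAT-induced genes, 28 had ratios below 0 at 4 h and 22 had ratios above 0 at 12 h. The shares of all genes were 48.7% and 53.1%, and the list medians -0.34 and 0.11. Below 0 at 4 h and above 0 at 12 h were 21 of 29, against 27.9% of all genes. Dusp4, a phosphatase that restrains MAP kinases, was at 9.83 with vector and 8.91 with DN at 4 h, and at 9.28 and 9.39 at 12 h. Nr4a3, an orphan nuclear receptor, was at 11.96 and 11.22 at 4 h and at 9.59 and 9.63 at 12 h. In both, DN was the lower at 4 h and the arrays of 12 h were nearly level.

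Transcription factors of the same list had ratios at 4 h and 12 h of -0.56 and 0.37 for Irf8, -0.54 and 0.10 for Irf4, -0.48 and 0.24 for Myc, and -0.41 and 0.38 for Atf3. The AP-1 members differed among themselves. Fosl1 (-0.64), Fosl2 (-0.61), Fosb (-0.50), Fos (-0.44) and Jun (-0.42) were below 0 at 4 h, whereas Junb (0.05) and Jund (-0.07) lay near 0. Egr1 had -0.40 and 0.32, but Egr2 (-0.33 and -0.13) and Egr3 (-0.11 and -0.25) were below 0 at both times. Another kept probe set of Egr2 did not share its sign at 4 h. Rcan1, a calcineurin inhibitor that NFAT induces, had -0.07 at 4 h and 0.65 at 12 h. In the limma time test 0 of 29 passed and 16 had an unadjusted p under 0.05 (20.1% of all probe sets). With the trend prior 11 passed, all higher at 12 h (4.6% of all genes), among them Dusp4, Irf8, Myc and Egr1.

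NF-kappaB subunits, inhibitors and targets had medians of -0.37 and 0.17, with 11 of 15 below 0 at 4 h and 12 of 15 above 0 at 12 h. Of all genes, 48.7% were below 0 at 4 h and 53.1% above 0 at 12 h. Nfkbia, which encodes the inhibitor IkappaB alpha and is itself induced by NF-kappaB, was at 12.13 with vector and 11.43 with DN at 4 h, and at 11.45 and 11.67 at 12 h. Its 4 other kept probe sets had ratios below 0 at 4 h as well. Nfkbid had -0.75 and 0.14, Nfkb2 -0.41 and 0.40, and Relb -0.41 and 0.30, while Rela was near 0 at both times (-0.09 and 0.03). The other kept probe set of Nfkb2 did not share its sign at 4 h. Over the list, 7 of 11 other kept probe sets shared the sign of the brightest probe set of their gene at 4 h. Of the 15, 0 passed the limma time test, 7 had an unadjusted p under 0.05 (20.1% of all probe sets), and 7 passed with the trend prior, all higher at 12 h (4.6% of all genes).

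Among costimulatory and inhibitory receptors, 9 of 14 were below 0 at 4 h and 9 of 14 above 0 at 12 h, where 48.7% and 53.1% of all genes were. The medians were -0.32 and 0.06. Ctla4, an inhibitory receptor, was at 9.97 and 9.09 at 4 h and at 9.78 and 9.85 at 12 h, for vector and DN. Tnfrsf9, which encodes 4-1BB, was at 10.41 and 9.62 at 4 h and at 10.90 and 11.27 at 12 h. Il2ra, the high-affinity chain of the interleukin 2 receptor, had -0.41 and 0.05. Cd28, the main costimulatory receptor, had 0.18 and -0.08, and Cd27, a receptor of the same family as 4-1BB, had 0.41 and -0.16. The trend prior passed 6 of 14, all higher at 12 h (4.6% of all genes), and the limma test without it 0 of 14, with 8 at an unadjusted p under 0.05 (20.1% of all probe sets).

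Genes for making proteins and ribosomes had smaller medians, below 0 at 4 h and above 0 at 12 h. In the endoplasmic reticulum list, 19 of 25 were below 0 at 4 h and 16 above 0 at 12 h (medians -0.24 and 0.08). Of all genes, 48.7% were below 0 at 4 h and 53.1% above 0 at 12 h. Hspa5, the chaperone BiP, had -0.71 and 0.14, and the disulfide isomerase Pdia6 had -0.55 and 0.48. With the trend prior 7 of 25 passed the time test with a higher value at 12 h (4.6% of all genes). Atf4, a stress-induced transcription factor, had 0.30 and -0.12 and was the member that passed in the opposite direction (3.26% of all genes). In the ribosome biogenesis list, 22 of 27 were below 0 at 4 h and 18 above 0 at 12 h (medians -0.26 and 0.06). The shares of all genes beside these are the same 48.7% and 53.1%. Rrp9 had -0.82 and 0.54, Nop58 -0.89 and -0.04, and Fbl, the methyltransferase fibrillarin, -0.27 and 0.58. With the trend prior 9 of 27 passed, all higher at 12 h (4.6% of all genes). In the limma test without it 0 of 25 and 0 of 27 passed, with 11 and 10 at an unadjusted p under 0.05 (20.1% of all probe sets were). Additional kept probe sets of these 2 lists were below 0 at 4 h for 24 of 28 and 24 of 25. At 12 h they were above 0 for 18 of 28 and 12 of 25, so in the ribosome list the additional probe sets fell on both sides of 0 at 12 h.

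In the glycolysis and hypoxia list the medians were -0.13 and 0.05. Hk2, which catalyses the first step of glycolysis, had -0.74 and 0.51, and Pkm, the last enzyme, -0.61 and 0.25. Slc2a1, the glucose transporter Glut1, had 0.53 and -0.04. Ldha (-0.07 and 0.05) and Pgk1 (-0.09 and 0.04) hardly differed.

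**Figure D3:**
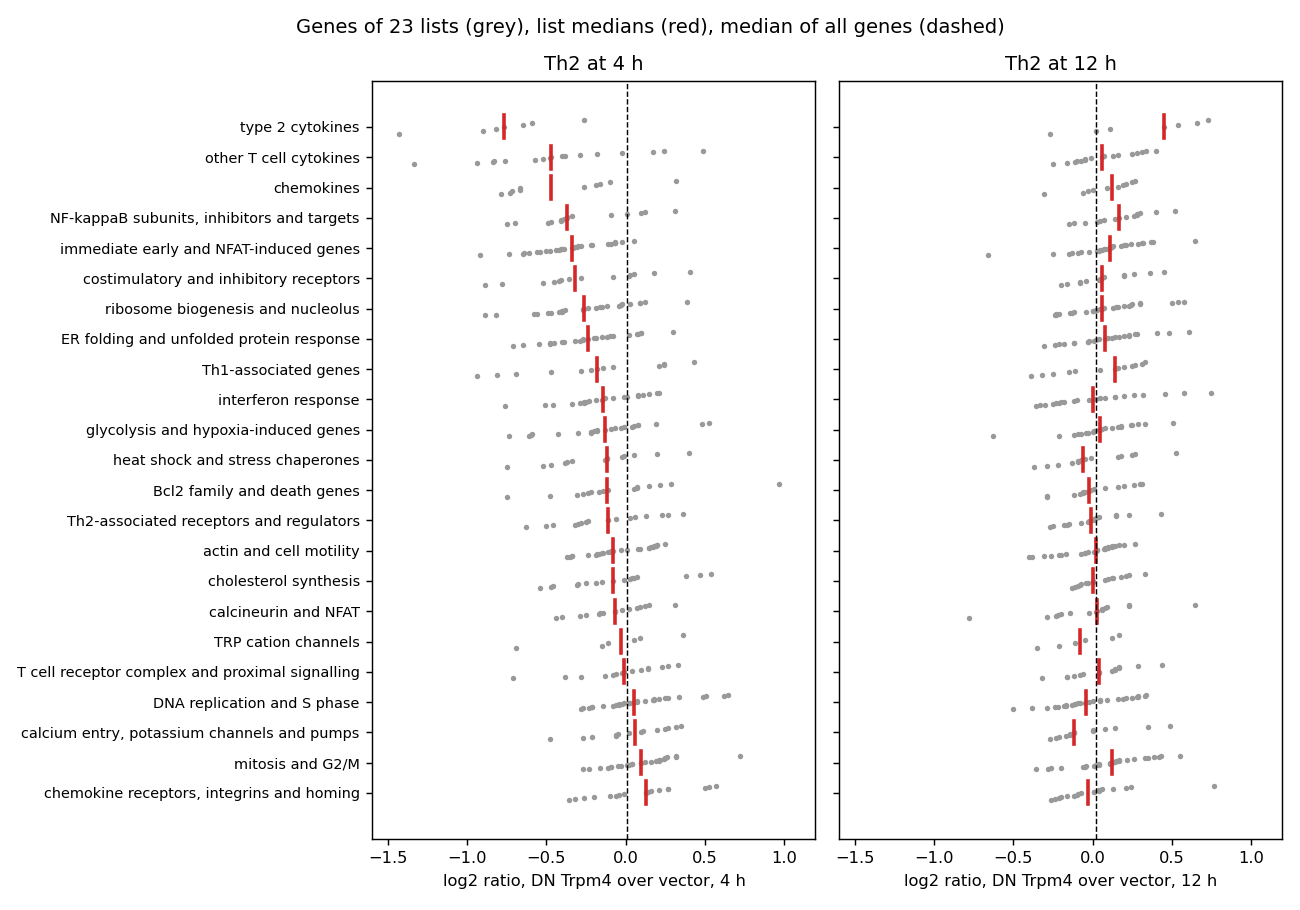
Log2 ratio of DN Trpm4 over vector for the kept genes of 23 lists (grey points, 1 probe set per gene), with list medians (red bars) at 4 h and at 12 h and the median of all genes (dashed line at 0.01 and 0.02). Type 2 cytokines have the lowest median at 4 h (-0.77) and the highest at 12 h (0.45), and most other lists lie close to the dashed line at 12 h.

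Genes of the signalling machinery and Th2 regulators, in 5 lists, had medians between -0.12 and 0.06. Among calcium channels, potassium channels and pumps, the medians were 0.06 and -0.12, and both changed sign under some alternatives. Orai1, the pore of the store-operated channel, had -0.21 and 0.00, and Stim1, its sensor in the endoplasmic reticulum, had 0.10 and -0.27. Calcineurin and NFAT genes had medians of -0.07 and 0.03, with Nfatc1, which NFAT itself induces, at -0.29 and 0.09 and Nfatc2 at 0.12 and 0.08. The T cell receptor list had medians of -0.01 and 0.04. Its largest ratio at 4 h was -0.71 for Lcp2, the adaptor SLP-76, with 0.17 at 12 h, and this gene passed the trend test together with Cd2. Among TRP channels, Trpm7 had 0.36 and -0.35 and passed the trend test with a lower value at 12 h, and Mcoln2 had -0.69 and -0.05. The 2 other kept probe sets of Trpm7 did not share its sign at 4 h. Th2 receptors and regulators had medians of -0.11 and -0.01, with Gata3 at -0.32 and 0.02 and Maf at 0.27 and -0.25. In these 5 lists 0 members passed the limma time test, and the members with an unadjusted p under 0.05 numbered 1 of 14, 2 of 16, 2 of 15, 1 of 6 and 5 of 17 in the order given, beside 20.1% of all probe sets. The other members that passed the trend test were Atp2a2, a calcium pump of the endoplasmic reticulum (-0.48 and 0.14), and 2 Th2-associated genes. These were Ecm1 (-0.24 and 0.43) and Nfil3 (-0.46 and 0.15). In the same order of lists, 1 of 14, 0 of 16, 2 of 15, 0 of 6 and 2 of 17 passed it higher at 12 h. The share of all genes was 4.6%. Trpm7, 1 of 6, was the only member that passed it lower (3.26% of all genes).

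The mitosis list had a median above 0 at both times. Of 27 genes, 19 were above 0 at 4 h (51.3% of all genes were) and 20 at 12 h, where 53.1% of all genes were. At both times 15 were above 0 and 3 below (25.2% of all genes were above 0 at both), and the other 9 changed side. The medians were 0.10 and 0.12 and kept their sign under each alternative run. Aurka, a mitotic kinase, had 0.12 and 0.43, Tpx2 0.22 and 0.33, and Kif2c, a microtubule-depolymerising kinesin, 0.72 and 0.14. The single difference past 1.5-fold was that of Kif2c. In Th1 cells the median of this list was -0.20 at 4 h and -0.28 at 12 h. Other kept probe sets of the same genes were below 0 in 6 of 21 cases at 4 h, and shared the sign of the brightest probe set of their gene in 7 of 21. Of the 27 genes, 0 passed the limma test of DN minus vector over both times or the test of Th2 minus Th1. The DNA replication list had medians of 0.05 and -0.04. With the trend prior 3 of 29 passed the time test with a lower value at 12 h (3.26% of all genes did) and 0 with a higher one. Among the 3 were 2 subunits of the replicative helicase, Mcm4 (0.62 and -0.50) and Mcm6 (0.65 and -0.24). Without the trend prior 0 of 29 passed.

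Vector arrays alone placed these groups in their time course, although they share the vector array of each time with the ratios. From 4 h to 12 h with vector, the median of immediate early and NFAT-induced genes was -0.82, that of other T cell cytokines -0.80 and that of NF-kappaB genes -0.68. The median of type 2 cytokines was -0.18 and that of chemokines 0.28. The endoplasmic reticulum list had a median of 0.47, the ribosome biogenesis list 0.29 and the DNA replication list 0.89. Groups with a negative median at 4 h with DN therefore included some that were lower and some that were higher at 12 h than at 4 h with vector.

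In Th1 cells with the same DN virus the medians of these groups lay near 0, while single members lay further from it. At 12 h in Th1 cells, Il21 had a ratio of -0.65, Fos -0.53, Egr3 -0.52 and Il13 0.46. The median of type 2 cytokines there was 0.16 at 4 h and 0.07 at 12 h, that of immediate early and NFAT-induced genes -0.01 and -0.06, and that of chemokines -0.01 at both times. Trpm4 siRNA in Th2 cells gave medians of -0.01, 0.00 and 0.04 for the same 3 lists. Il5 had ratios of 0.13 and -0.20 in Th1 cells, and -0.02 with siRNA in Th2 cells. The limma test of the DN effect in Th2 minus Th1 over both times passed 0 of 23194 probe sets (0%), with 746 at an unadjusted p under 0.05 (3.22%) and a smallest adjusted p of 0.718. It averages the 2 times, and so cannot register an effect that changes sign between them.

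**Figure D4:**
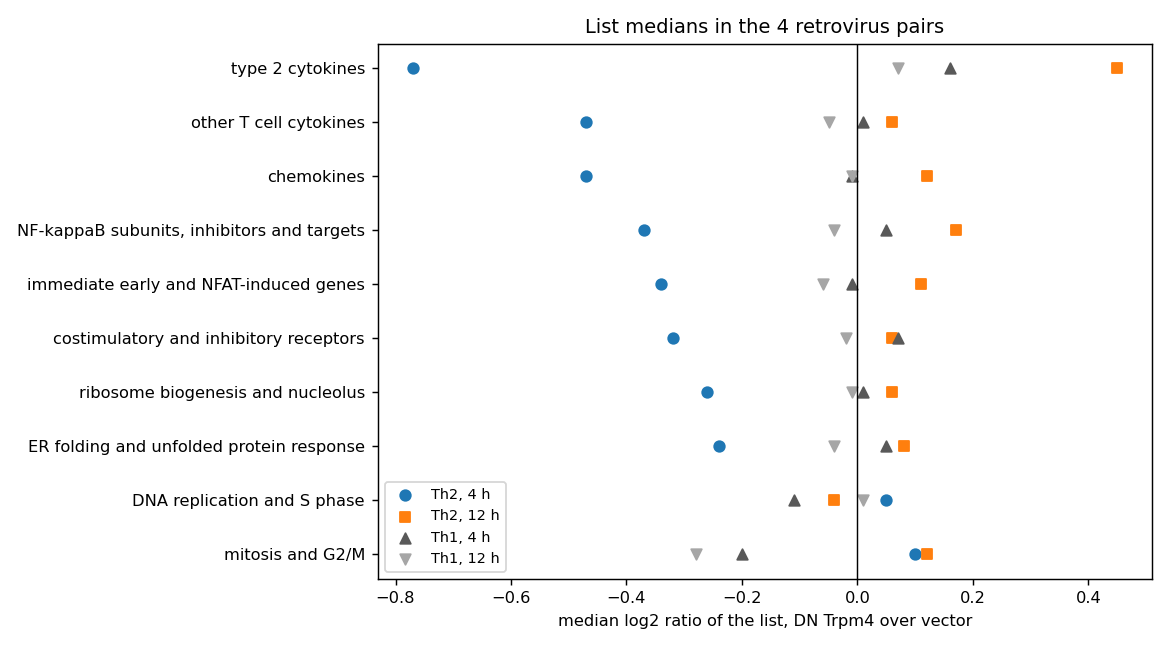
Median log2 ratio of DN Trpm4 over vector for 10 gene lists in the 4 retrovirus pairs, 1 point per pair of arrays. The Th2 points at 4 h lie at -0.24 or lower for 8 lists, while the Th1 points of those lists lie between -0.06 and 0.16.

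Several measures moved with the sign of these lists. Total signal was lower with DN at 4 h and higher with DN at 12 h, as the cytokine medians were. The transferrin receptor control, a gene that dividing T cells need, had ratios of -0.46, -0.50 and -0.53 for its 3′, middle and 5′ probe sets at 4 h and 0.07, 0.15 and 0.48 at 12 h. The Actb control, by contrast, had -0.04 at its 3′ end at both times and -1.05 and -0.43 at its 5′ end, and so did not change sign. The list medians at 4 h and 12 h had the same signs on the deposited, median-centred and quantile scales for the 8 lists from cytokines to ribosome biogenesis. The part of array quality, infected share or extent of stimulation in these values was not tested.

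Over both times together, the limma fit to the 4 arrays, with time as a block and 1 residual degree of freedom, passed 1 of 23194 probe sets (0.00431%), and 590 (2.54%) had an unadjusted p under 0.05. This was Uhrf2, a RING-finger relative of the maintenance methylation factor Uhrf1. Its probe set was at 7.42 with vector and 6.07 with DN at 4 h, and at 8.68 with vector and 6.35 with DN at 12 h. Both DN arrays lay below both vector arrays. The mean ratio was -1.84 ± 0.23 (SE, n = 2 pairs) with a limma adjusted p of 0.0386. The ratios were 0.18 and -0.01 in Th1 cells. The call was lost in the fit to 8 retrovirus arrays (limma adjusted p = 0.31), with robust eBayes (0.0817) and without the filter (1), and the range over all alternatives was 2.77e-10 to 1. A second Uhrf2 probe set had ratios of 0.38 and -0.54, so the probe sets of this gene disagreed at 4 h.

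Probe sets with the same direction at both times were otherwise of modest size and mostly dim. Of the 10 past 1.5-fold higher at both times, 9 had a mean log2 level under 7, as had 9 of the 11 lower at both and 12011 of all 23194. Acad10, an acyl-CoA dehydrogenase, was at 5.70 with vector and 6.83 with DN at 4 h, and at 5.92 and 7.06 at 12 h. Its ratios, for which it was chosen, were 1.14 at both times, but another Acad10 probe set had -0.26 and -0.17. Fbxo31, an F-box protein of the ubiquitin ligases that degrade cyclin D1, was at 5.92 and 6.59 at 4 h and at 5.50 and 6.32 at 12 h. Its other probe set had the same direction, with 0.46 and 0.33. Egfl8, a secreted protein with EGF-like domains, had ratios of 0.87 and 0.70 and no other probe set.

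Among adaptors and signalling proteins higher at both times were Sla2, which dampens T cell receptor signalling (0.58 and 0.74), the kinase Tnik (0.55 and 0.59), the adaptor Shc1 (0.63 and 0.53) and the actin regulator Enah (0.74 and 0.58). Lower at both times were Tpbg, a surface glycoprotein (-0.88 and -0.58), Kdm5c, an X-linked histone demethylase (-0.71 and -0.82), the splicing factor Mbnl1 (-0.52 and -0.55) and Clta, a light chain of clathrin (-0.52 and -0.51). Tpbg was at 7.85 with vector and 6.97 with DN at 4 h, and at 7.14 and 6.56 at 12 h. Of its 2 other probe sets, one had -0.47 and -0.34 and the other -0.76 and 0.27. Kdm5c varied as much in Th1 cells, where its ratios were 1.02 and -0.55. Brighter probe sets of Mbnl1 (-0.06 and 0.05), Clta (0.15 and -0.05) and Sla2 (0.27 and -0.01) did not share the ratios given above for these genes. Nor did the brightest other probe sets of Enah (0.13 and -0.27), Shc1 (0.07 and 0.00) and Kdm5c (-0.20 and 0.05). A brighter Tnik probe set had 0.56 and -0.19 and so differed at 12 h. For the 12 highest genes, 5 of 12 other kept probe sets had the same direction at both times, and for the 12 lowest 4 of 23. Except for Uhrf2, none of these 24 genes passed the limma test, and their adjusted p ranged from 0.241 to 1.

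**Figure D5:**
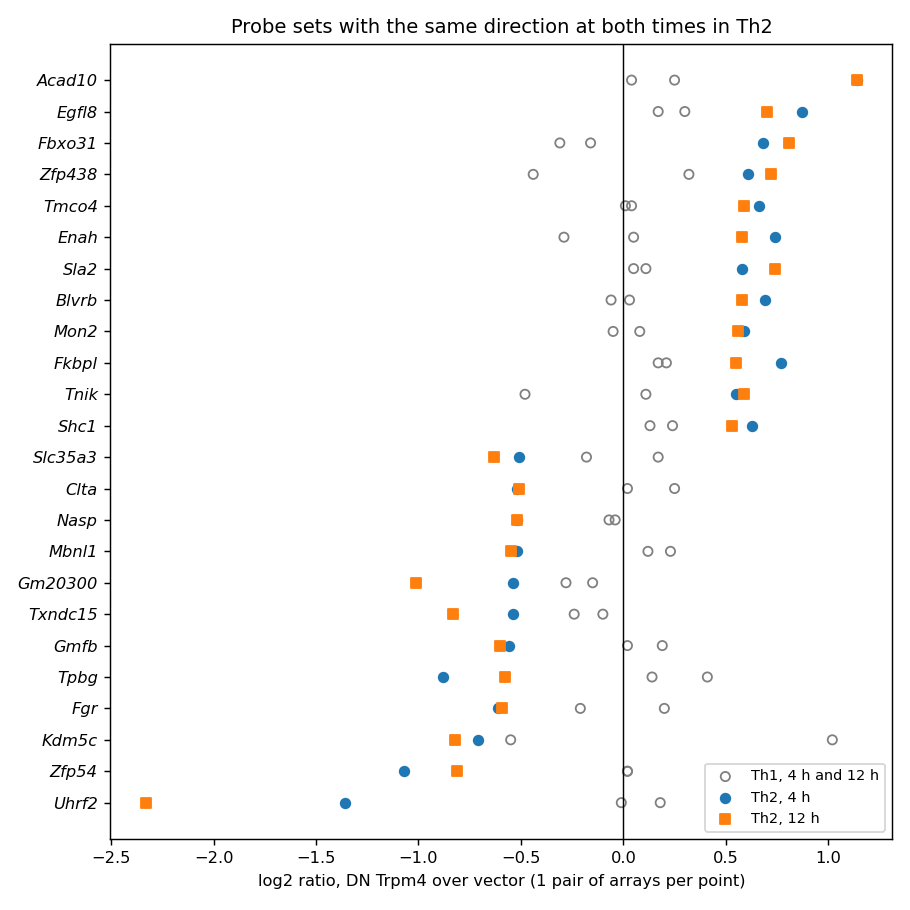
Log2 ratio of DN Trpm4 over vector for the 24 genes with the largest ratios of the same direction at both times in Th2 cells (filled circles 4 h, squares 12 h), with Th1 ratios at both times as open circles, 1 pair of arrays per point. Ratios in Th2 cells run from 0.53 to 1.14 and from -2.33 to -0.51 because the genes were chosen for them, and the Th1 points lie on both sides of 0, with Kdm5c at 1.02 and -0.55.

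The limma test of the DN effect at 12 h minus that at 4 h passed 7 of 23194 probe sets (0.0302%), 3 with a higher and 4 with a lower value at 12 h. Gzme, a granzyme of activated lymphocytes, was at 6.86 with vector and 5.25 with DN at 4 h, and at 7.03 and 7.23 at 12 h. The DN array at 4 h stood apart below the other 3. The difference was 1.81 ± 0.17 (SE, 1 pair per time, limma adjusted p = 0.0439), and the probe set may also bind close relatives in the granzyme cluster. Pdgfrb, a growth factor receptor of mesenchymal cells, was at 6.46 and 5.46 at 4 h and at 4.21 and 5.33 at 12 h, a difference of 2.13 ± 0.20 (limma adjusted p = 0.0439). Its other probe set had ratios of 0.33 and -0.19, the opposite order. Rad21, a subunit of cohesin, was at 9.45 and 10.41 at 4 h and at 10.61 and 9.60 at 12 h, a difference of -1.97 ± 0.17 (limma adjusted p = 0.0439). Its 2 other probe sets had -0.30 and 0.02, and -0.43 and 0.17. The uncharacterised transcript 2210039B01Rik had a difference of -2.07 ± 0.18. The 4 h pair taken alone, with the same borrowed spread, passed 3 probe sets (0.0129%), among them Gzme with a limma adjusted p of 0.0211. The 12 h pair alone passed 0 (0%), with 3620 at an unadjusted p under 0.05 and a smallest limma adjusted p of 0.154.

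Of the genes ranked highest for opposite directions, the group higher at 4 h was the brighter. Probe sets higher at 4 h and lower at 12 h had a median level of 7.10, against 5.76 for those lower at 4 h and higher at 12 h and 6.92 for all. In the first group 17 of 58 (29.3%) were of the kinds that can bind several transcripts, named _x_at or _s_at, against 12.5% of all and 2 of 35 (5.71%) in the second. H2-K1, a class I histocompatibility heavy chain, was at 10.27 with vector and 11.19 with DN at 4 h, and at 11.19 and 10.16 at 12 h. Its probe set is of such a kind and the family has near-identical members, and its 3 other probe sets had ratios between -0.40 and 0.28. Sla, the adaptor SLAP that lowers T cell receptor levels, had 0.74 and -0.74, and another of its probe sets 0.71 and -1.05. The brightest Sla probe set (12.24) had -0.53 and 0.07.

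In the second group, besides Il24, Timd2, a Tim family receptor, was at 6.61 and 5.75 at 4 h and at 6.99 and 7.64 at 12 h. Gpat4, which starts glycerolipid synthesis, had -0.71 and 0.77, and the tyrosine kinase Fes -0.71 and 0.72. The other probe sets of Timd2 (-0.19 and 0.46) and Fes (-0.44 and 0.29) had the same order of signs.

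Genes with the most extreme ratio at 1 time included 2 that several probe sets supported at 4 h. Plek, the protein kinase C substrate pleckstrin, was at 7.61 with vector and 6.50 with DN at 4 h, and at 6.60 and 6.78 at 12 h. Its other probe sets had -1.0 and -0.88 at 4 h and -0.06 and 0.08 at 12 h. Ndrg1, a gene induced by hypoxia and in anergic T cells, was at 8.50 and 7.39 at 4 h and at 7.55 and 7.73 at 12 h, and its 4 other probe sets had -0.99, -1.07, -0.17 and -0.60 at 4 h. In both, the vector array at 4 h was the highest of the 4. Eif4g2, a translation factor, was the brightest of the 8 highest at 4 h, at 12.56 and 13.71, with 12.88 and 12.69 at 12 h. Its other kept probe sets had -0.36, 0.04 and -0.10 at 4 h and so did not share this ratio. At 12 h the lowest after Uhrf2 was Plcb1, a phospholipase C that makes the calcium-releasing messenger (-1.48). Next came Camk2n2, an inhibitor of calmodulin-dependent kinase II (-1.41). Both were below the array median on the DN array at 12 h (4.92 and 5.10). The 4 other Plcb1 probe sets, none of them kept, had ratios of -0.01, 0.35, -0.12 and -0.03 at 12 h. Of the 8 lowest at 12 h, 7 had a mean level under 7. Wee1, the kinase that restrains Cdk1, was at 6.37 and 6.36 at 4 h and at 7.63 and 6.40 at 12 h, so that the vector array at 12 h alone was high. Its other probe set had -0.27 and -0.38. All 8 highest at 12 h had a mean level under 7, and in those whose value was given by the vector array, such as Fancc (5.96, 5.73, 4.93 and 6.01 on vector and DN at 4 h and vector and DN at 12 h), 1 dim array set the ratio.

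Over all genes with several probe sets, another probe set of a gene had the same sign as its brightest in 56.7% of 8254 cases at 4 h and 55.3% at 12 h.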

How the data were processed

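Biotin-labelled total RNA, isolated with Trizol, was measured on Affymetrix arrays, per the labels' protocols. The authors deposited probe set intensity on a linear scale. Their probe summary and array scaling are not given in the sources. Of 45101 probe sets, 64 were controls, which were left out of the tests. The array annotation gave 1 gene for 34958 probe sets, several for 932 and none for 9211, and 34754 symbols were checked through their identifiers with 0 changed.

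Quantile normalisation covered the 14 arrays, and values became log2(value + 16). Probe sets above the array median on at least 2 of the 4 Th2 retrovirus arrays were kept. Two-sided limma 3.58.1 tests were run in R 4.3.3, with Benjamini-Hochberg adjustment over all kept probe sets and a threshold of 0.05. DN minus vector was fitted to the 4 arrays with time as a block (1 residual degree of freedom). The time difference was fitted to 6 pairs (3 degrees of freedom, from the other 4 pairs), and Th2 minus Th1 to 4 pairs (2 degrees of freedom). Pairs were defined by the time in the labels, and no replicate numbers exist. The fits were tested on simulated data, where the test with 1 residual degree of freedom gave more false calls than its threshold allows, so its single call is weak. Precision is limited by the few arrays.

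The members and the 23 gene lists and 9 marker lists were chosen with earlier results of these data known. A list took the brightest kept probe set of each gene. Named genes were those past a test, the 12 highest and 12 lowest at both times and the 8 highest each way for opposite directions, ranked by the ratio nearer to 0, the 8 highest and lowest at each time, Thy1 and Trpm4, and in each list up to 6 members with the largest mean absolute ratio. For the ranked groups, the mean of a time's arrays had to exceed the array median at both times. List members beyond these 6 that the text names were chosen after their values were seen. Promoters came from RefSeq on GRCm38.p6. Alternatives were other scalings, pseudocounts, filters, variance priors, fold limits and pairs left out. List medians over all kept probe sets, the spread of the Th1 retrovirus pairs alone and the exclusion of shared probe sets were chosen after seeing the data.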

Additional observations from a re-analysis of the deposited data

Results flagged for a closer look

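In 7 probe sets the DN Trpm4 effect in Th2 cells differed between 12 h and 4 h in the limma test, with adjusted p of 0.0158 or 0.0439. For 3 the DN effect was higher at 12 h, by 2.48 for the unnamed probe set 1421227_at, 2.13 for Pdgfrb and 1.81 for Gzme. For 4 it was lower, by a difference of -2.95 for the unnamed 1446289_at, -2.65 for the unnamed 1428859_at, -2.07 for 2210039B01Rik and -1.97 for Rad21. The probe set 1428859_at was at 6.37 with vector and 9.18 with DN at 4 h, and at 9.26 and 9.42 at 12 h, so that the vector array at 4 h stood apart below the other 3. The probe set 1421227_at was at 7.15 and 5.20 at 4 h and at 6.88 and 7.41 at 12 h, and there the DN array at 4 h stood apart. Its ratios in Th1 cells were 0.11 and 0.15. The spread behind these tests came from other pairs of the series, 3 of the 7 probe sets are not named here, and other probe sets of Pdgfrb and Rad21 did not share the direction.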

How the results depend on the processing

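Each condition had 1 array, and dim signals near the floor understate differences. The single call for DN minus vector became 7 on the deposited scale and 6 with median-centred arrays. It became 0 with pseudocounts of 1 or 64, quantile normalisation of the 4 arrays alone, a 75th percentile filter, no filter, 1 probe set per gene, robust eBayes, no replicate block (time left out) and 8 retrovirus arrays, and 0 to 3 with either time left out. It stayed at 1 with a trend. The 7 calls for the time difference became 44 on the deposited scale, 88 when median-centred, 0 with pseudocount 1, 1568 with pseudocount 64, 1 with no filter, 978 at the 75th percentile, 4 with 1 probe set per gene, 1600 with a trend, 147 with the Th1 retrovirus pairs alone, and 0 to 3 with each other pair left out. The 0 calls for Th2 minus Th1 became 0 to 4 when a pair was left out, and stayed at 0 in the other alternatives. The 21 probe sets past 1.5-fold in the same direction became 36 on the deposited scale, 37 when median-centred, 119 and 3 with pseudocounts of 1 and 64, 46 with no filter, 3 at the 75th percentile, 7 with 1 probe set per gene, and 437 and 3 at a limit between 1 and 1.5-fold and at 2-fold. The 93 in opposite directions became 305 and 25 with pseudocounts of 1 and 64, 36 at the 75th percentile, 38 with 1 probe set per gene, and 1005 and 3 at a limit between 1 and 1.5-fold and at 2-fold. The cause of these shifts was not tested. The time is the only link within a pair, since the labels give no replicate number. Leaving out a time gives no count for both times. Of the named genes' values under the alternatives, 305 kept their direction and, where there was an adjusted p, their side of the threshold. A further 11 lost the threshold, 69 gained it and 0 reversed. Quantile normalisation of the 4 arrays alone gave an adjusted p only for the mean over both times. Its other values are among the 305 by direction alone. The list medians of 1 probe set per gene are the values reported, so that alternative was not run separately.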
